A study of Mus musculus with 69 samples.

Results

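Described here is the mRNA-seq comparison of 2 clones with the same edit, H3.3K27R clone Mut18 against clone Mut43, gene by gene. Of the 16263 genes in the count table, 13732 had at least 10 counts in 2 or more of the 4 mutant libraries and were compared, and the other 2531 were left out. The 4 mutant libraries were set against each other, and the WT libraries served as the reference level. No measured difference entered the filter that chose the genes, but the gene lists used below were chosen with earlier results of these data known.

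The study sequenced mRNA from 3 lines of J1 mouse embryonic stem cells (ESCs), a male line derived from the inner cell mass of a 129S4/SvJae blastocyst. WT is the parental line. Mut18 and Mut43 are H3.3K27R #18 and H3.3K27R #43, in which CRISPR-Cas9 editing had replaced lysine 27 of H3.3 by arginine in both H3f3a and H3f3b, and each is a single clone. All lines had been grown on feeder cells and then without feeders for the last passages before harvest, no other treatment was given, and each line had 2 libraries, labelled biological replicates.

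Histone H3.3 is the replacement variant of histone H3, encoded by H3f3a and H3f3b, and it is placed on chromatin at any time of the cell cycle, mostly at enhancers, promoters and transcribed genes. Acetylation of lysine 27 marks active enhancers and promoters, and arginine at this position cannot be acetylated or methylated as lysine is. Clones carry the same designed change but descend from different founder cells, so a difference between clones measures how far edited lines with one genotype lie apart, by whatever cause.

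Depth was nearly equal, with totals of 14992756 to 15071780 counts in the mutant libraries and up to 15143998 in WT. Values below are counts divided by the effective size of each library and scaled to its mean, called normalized counts. The edited cells had high levels of the ESC transcripts Pou5f1, at 10003 to 10599 normalized counts in the 4 mutant libraries, and Nanog, at 5191 to 5314. Of the 10 listed ESC markers, Fut4 was low, with 15 and 20 counts in Mut18, 19 and 17 in Mut43, and 38 and 29 in WT. Every other listed marker had at least 1209 counts in each mutant library. Fut4 was named after its values had been seen. Of 22 fibroblast markers, 17 had more counts in the first WT library and 5 in the second, and 6 were over 2-fold higher in the first and 0 in the second. The first had 863 counts of Col3a1 against 262 in the second, 438 against 59 of Col6a1 and 17 against 0 of Lum. Differences between the clones do not use the WT levels, but in a fit with all 6 libraries the WT libraries add to the estimate of the spread, and counts are therefore also given without them. The p-values measure only the spread between these libraries.

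The clones had nearly the same transcriptome. The median size of the log2 difference between them was 0.075 over the 13732 genes. Pearson's r of log2 values (pseudocount 1) across genes, which are not independent replicates, was 0.995 within Mut18, 0.995 within Mut43 and 0.994 for each pair of a Mut18 and a Mut43 library. In counting terms same-numbered libraries of the clones lay slightly farther apart than replicates. The chi-square per gene was 2.98 between the first libraries of the clones and 2.34 between the second. It was 2.09 between the Mut18 replicates and 1.83 between the Mut43 replicates, and other pairs across the clones were not computed. The 95% interval of the difference lay wholly within 2-fold for 12398 genes (90.29%), included 2-fold for 1334 and lay wholly beyond it for 0. Among the 10941 genes that reached a mean of 50 normalized counts, the interval lay within 2-fold for 99.82%.

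Few genes passed the test between the clones. At an adjusted p under 0.05 (edgeR quasi-likelihood test, Benjamini-Hochberg adjustment), 37 genes were called higher in Mut18 (0.269% of those tested) and 9 higher in Mut43 (0.0655%). At an unadjusted p under 0.05, 676 genes were higher in Mut18 (4.92%) and 504 in Mut43 (3.67%). All 46 called genes had libraries of the clones that did not overlap, as did 2666 of all genes with Mut18 higher (19.4%) and 2644 with Mut43 higher (19.3%). Differences were small, since 1 called gene differed by over 2-fold and 10 by over 1.5-fold, and the smallest called fold was 1.14. Called genes were well expressed, at a median of 753.2 normalized counts against 325.4 over all genes. In the 4 mutant libraries alone the same test called 60 and 12 genes, and with a single mutant library left out 6 to 13 and 2 to 3. Leaving out either library of either clone ended the call of 31 to 39 of the 46 genes, while Wdr77, Atp5f1, Acta2, Car2, Tnc, Col1a1 and Cald1 were called in all 14 other fits.

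**Figure D1:**
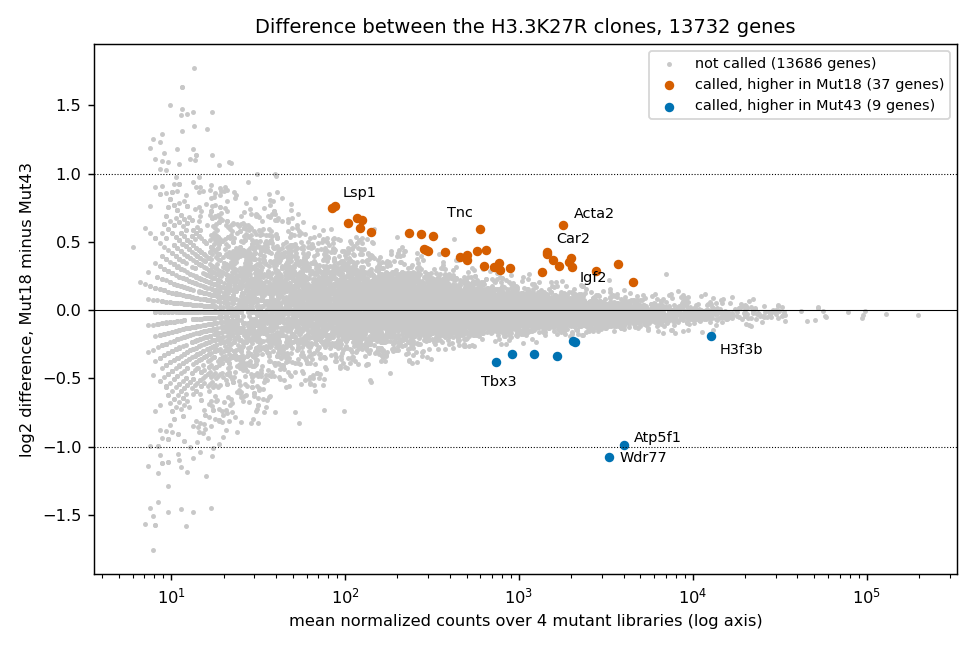
Each point is 1 of 13732 genes, with the mean over the 4 mutant libraries in normalized counts on a log axis and the log2 difference of Mut18 minus Mut43 on the vertical axis, where dotted lines mark 2-fold. The 37 orange points are called higher in Mut18 and the 9 blue points higher in Mut43, and Wdr77 and Atp5f1 lie far below the other called genes.

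The largest called difference was in a pair of genes that share a start region on chromosome 3. Wdr77 encodes the WD-repeat partner of the arginine methyltransferase Prmt5, and Atp5f1 (RefSeq name Atp5pb) encodes a subunit of the peripheral stalk of mitochondrial ATP synthase. In GRCm38.p6, Wdr77 lies on the plus strand at chr3:105959498-105969760 and Atp5f1 on the minus strand at chr3:105942698-105959263, so the genes run away from each other. The 234 bases between their annotated starts, chr3:105959264-105959497, are shown because both promoters lie in them. They are read on the plus strand from RefSeq promoter sequences, and capitals mark TCTCGCGAGA, the longest stretch in them that reads the same on both strands and occurs more than once.
Atp5f1 to Wdr77: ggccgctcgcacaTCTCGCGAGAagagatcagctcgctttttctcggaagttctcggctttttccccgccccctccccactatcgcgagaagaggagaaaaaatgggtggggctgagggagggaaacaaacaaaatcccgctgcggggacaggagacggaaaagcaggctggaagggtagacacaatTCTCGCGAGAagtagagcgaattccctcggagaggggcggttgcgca
The stretch holds 2 copies of TCTCGCGAGA and is 57.69% G and C. In the 250 bases before the start, this motif was found in 0.9874% of the 10837 compared genes that had a RefSeq promoter.

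Wdr77 had 2077 and 2152 normalized counts in Mut18, 4549 and 4360 in Mut43, and 3871 and 3941 in WT. Both Mut18 libraries were thus below all others, at 47.5% of the Mut43 mean and 54.1% of the WT mean. The log2 difference of Wdr77 was -1.08 (standard error 0.046, 95% interval -1.17 to -0.98, adjusted p = 5.49e-15, edgeR quasi-likelihood test, Benjamini-Hochberg adjustment). Atp5f1 had 2624 and 2732 normalized counts in Mut18, 5459 and 5167 in Mut43, and 5057 and 5220 in WT. Mut18 was again far below, at 50.4% of Mut43, while the Mut43 and WT libraries overlapped. The log2 difference of Atp5f1 was -0.99 (standard error 0.046, adjusted p = 2.44e-14, same edgeR test).

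Neither gene that flanks the pair was called. Ovgp1, which encodes an oviduct glycoprotein and lies next to Wdr77, had 5.00 and 9.10 normalized counts in Mut18 against 22.4 and 17.2 in Mut43. Its log2 difference was -1.48 with a 95% interval of -2.38 to -0.58, and it was not called (adjusted p = 0.200, edgeR). Pifo, the next gene, had 5.00 and 4.04 normalized counts in Mut18 and 10.2 and 10.1 in Mut43, with an interval of -2.37 to 0.08. On the other side, the GTPase gene Rap1a had a log2 difference of -0.11 (interval -0.25 to 0.02), and the RNA helicase gene Ddx20 one of -0.04 (interval -0.14 to 0.06). Of the 12 compared genes within 1 Mb of Wdr77, only Wdr77 and Atp5f1 were called. Pifo, Rap1a and Ddx20 were named after their values had been seen.

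**Figure D2:**
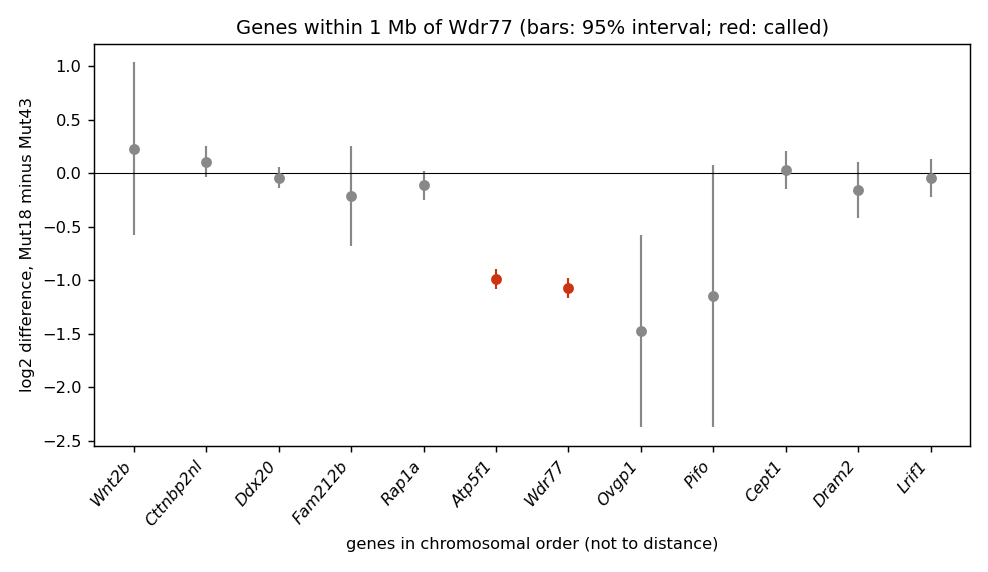
Points are log2 differences of Mut18 minus Mut43 for the 12 compared genes within 1 Mb of Wdr77, in chromosomal order, and bars are 95% intervals. Atp5f1 at -0.99 and Wdr77 at -1.08 are called, Ovgp1 and Pifo have wide intervals at low counts, and the other 8 points lie between -0.21 and 0.23.

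Chromatin at the shared start was open in every line by ATAC-seq, an assay in which a transposase cuts accessible DNA. The authors' peak lists had a peak over the stretch in all 6 libraries. Its fold enrichment over background was 9.03 and 7.39 in Mut18, 8.29 and 8.28 in Mut43, and 7.50 and 9.15 in WT. These values overlap between the lines. The -log10 q of the peak, its score in peak calling, did not overlap. It was 25.0 and 16.6 in Mut18, 32.1 and 28.4 in Mut43, and 37.1 and 36.8 in WT. The main peak was also shorter in both Mut18 libraries than in the others. The peak lists do not give library depth, and the cause of the lower score was not tested. The peaks spanned 453 and 516 bases in Mut18, 902 and 552 in Mut43, and 890 and 532 in WT, with a further WT peak of 198 bases nearby.

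The partners of Wdr77 were not called between the clones. Prmt5, the catalytic subunit, had 4840 and 4949 normalized counts in Mut18 against 4970 and 5107 in Mut43, and differed by -0.04 on the log2 scale. Clns1a, the substrate adaptor for spliceosomal Sm proteins, had a log2 difference of -0.03, and Riok1, another adaptor, one of 0.03. Of the 12 genes compared in the list of methylosome and Prmt5 partners, Wdr77 was called and the other 11 were not. Prmt5, Clns1a and Riok1 were named after their values had been seen.

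The edited genes themselves are next. H3f3b (chr11:116021961-116026039, minus strand) had 11634 and 12022 normalized counts in Mut18, 13545 and 13375 in Mut43, and 12404 and 12417 in WT. Its Mut18 libraries lay below, and its Mut43 libraries above, both WT libraries. The log2 difference was -0.19 (standard error 0.041, adjusted p = 0.0383, edgeR quasi-likelihood test, Benjamini-Hochberg adjustment), a 1.14-fold difference that was not called in 7 of the 14 other fits, among them each that left out a mutant library. H3f3a had 9543 and 9157 normalized counts in Mut18 and 9322 and 8429 in Mut43, which overlap, with an interval of -0.02 to 0.17 for the log2 difference. Reads from H3.3 pseudogenes may be counted with these genes, and a count cannot tell edited from unedited codons. None of the 12 other members of the list of H3.3 genes and chaperones, was called.

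Among the lists, that of actin and contractile genes held the most genes called higher in Mut18. The lists were chosen with earlier results of these data known, so their counts are a description and not an independent test. Actin filaments and the myosin that pulls on them give a cell its tension and its grip on the matrix. Of the 32 genes compared in the list of actin and contractile genes, 7 were called higher in Mut18 and 0 in Mut43. At an unadjusted p under 0.05 these were 17 and 0, and in 26 the Mut18 libraries lay wholly above the Mut43 libraries, with none the other way. Over all genes, 4.92% had such a p with Mut18 higher and 3.67% with Mut43 higher. Libraries of the clones did not overlap in 19.4% and 19.3%. The same shares stand behind the counts of the other lists. The list's median log2 difference was 0.14, against a median of -0.00013 over all genes. Without the first WT library 9 members were called, and with a single mutant library left out 2 to 5.

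Acta2, which encodes smooth muscle alpha-actin, had 2315 and 2024 normalized counts in Mut18, 1554 and 1267 in Mut43, and 2734 and 2577 in WT. The WT libraries were highest and the Mut43 libraries lowest, with no overlap. The log2 difference of Acta2 between the clones was 0.62 (standard error 0.069, adjusted p = 6.85e-06, edgeR quasi-likelihood test, Benjamini-Hochberg adjustment). Tagln, which encodes the actin-binding protein transgelin, had 2401 and 2084 normalized counts in Mut18, 1752 and 1686 in Mut43 and 3422 and 3386 in WT. Its log2 difference was 0.38 (adjusted p = 0.000357, edgeR). Cald1, the gene for caldesmon, which restrains actomyosin, had 1804 and 1753 normalized counts in Mut18, 1395 and 1367 in Mut43, and 2799 and 2704 in WT, and differed by 0.37 (adjusted p = 0.000165, edgeR). Both genes thus stood in the same order as Acta2, with no overlap between the lines.

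The other called members of the list were Vim, Zyx, Tpm4 and Tpm1. Vim, which encodes the intermediate filament protein vimentin, had 4230 and 4039 normalized counts in Mut18 and 3391 and 3155 in Mut43 (log2 difference 0.34). Zyx, for the focal adhesion protein zyxin, had 768 and 711 against 548 and 544 (0.44). The tropomyosin genes, whose products wrap actin filaments, differed least, with 3024 and 3103 against 2546 and 2486 for Tpm4 (0.28) and 4884 and 4819 against 4327 and 4099 for Tpm1 (0.20). Zyx overlaps Epha1, whose log2 difference was 0.40, and whether reads were shared between them is not known. The main cytoplasmic actin genes were not called, with log2 differences of -0.0043 for Actb and 0.015 for Actg1, nor was the non-muscle myosin gene Myh9 at -0.018. Srf, which encodes the factor that drives many of these genes, had overlapping libraries and a log2 difference of 0.08. Epha1, Actb, Actg1, Myh9 and Srf were named after their values had been seen.

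**Figure D3:**
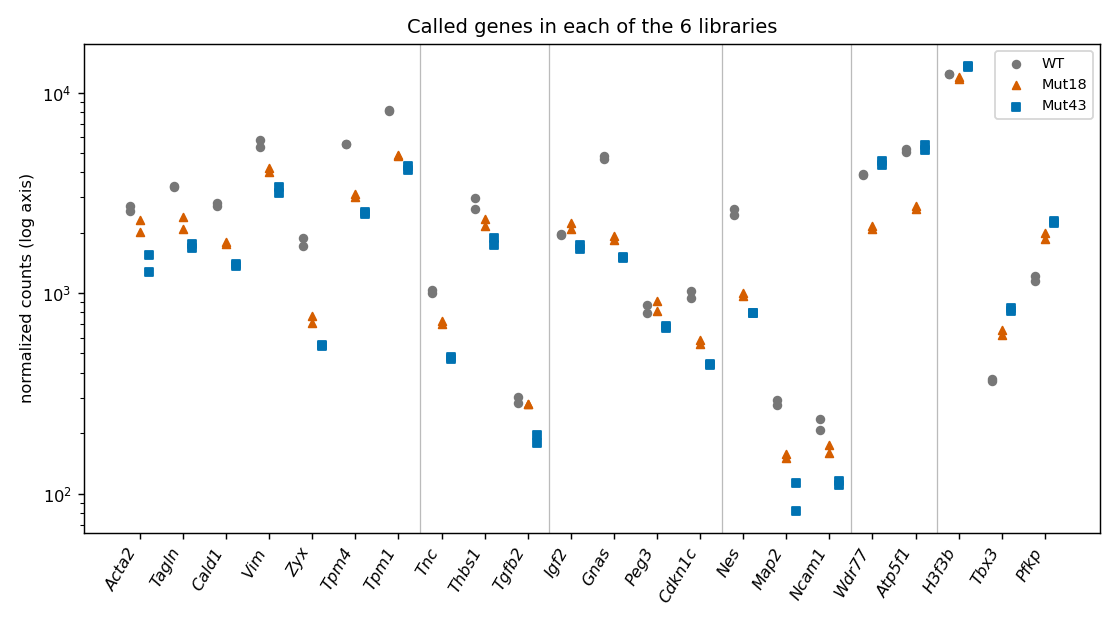
Normalized counts on a log axis in each of the 6 libraries are plotted for 22 called genes, with grey circles for WT, orange triangles for Mut18 and blue squares for Mut43. Lines part contractile, matricellular, imprinted, neural, the Wdr77 pair and other genes, and in the first 4 blocks both Mut18 points lie above both Mut43 points.

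A related list held targets of the mechanosensitive YAP and TEAD factors and matricellular proteins, which are secreted into the matrix and signal from there. Of its 31 genes compared, 3 were called higher in Mut18 and 0 in Mut43, 12 and 1 had an unadjusted p under 0.05, and the median log2 difference was 0.13. Without the first WT library 5 were called, and with any mutant library left out 1 to 2. Tnc (tenascin-C) had 729 and 704 normalized counts in Mut18, 469 and 482 in Mut43, and 1032 and 999 in WT. Its log2 difference was 0.59 (standard error 0.071, adjusted p = 1.91e-05, edgeR quasi-likelihood test, Benjamini-Hochberg adjustment). Thbs1 (thrombospondin 1) had 2338 and 2171 against 1881 and 1739 (0.32), and Tgfb2, a TGF-beta ligand, 279 and 278 against 196 and 179 (0.57). The commonly used reporter genes of YAP did not pass the test, at log2 differences of 0.24 for Cyr61 and 0.17 for Ctgf, and Yap1 itself had -0.04. Cyr61, Ctgf and Yap1 were named after their values had been seen.

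Promoters of the called genes were searched for GGAATG, the core site of TEAD factors, on both strands in the 250 bases before each RefSeq start, where a gene counts if any of its starts has a match. Of the 37 genes called higher in Mut18, 24 had a RefSeq promoter, and 7 of these held the motif (29.2%), against 12.8% of the 10837 genes with a promoter. Of the 9 genes called higher in Mut43, 7 had a RefSeq promoter and 1 held the motif (14.3%). In the list of actin and contractile genes, called or not, 10 of the 29 with a promoter held it (34.5%). Cald1 and Pls3, an actin-bundling plastin gene, are shown as examples in GRCm38.p6 from RefSeq, read 5' to 3' on the strand of the gene, with the motif or its complement CATTCC in capitals. The Cald1 stretch is chr6:34598254-34598503 on the plus strand and the Pls3 stretch chrX:75875183-75875432 on the minus strand.
Cald1: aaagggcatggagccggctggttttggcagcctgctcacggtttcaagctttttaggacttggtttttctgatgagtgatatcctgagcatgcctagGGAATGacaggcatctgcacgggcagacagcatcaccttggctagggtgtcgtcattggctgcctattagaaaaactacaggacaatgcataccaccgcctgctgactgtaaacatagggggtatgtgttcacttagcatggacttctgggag
Pls3: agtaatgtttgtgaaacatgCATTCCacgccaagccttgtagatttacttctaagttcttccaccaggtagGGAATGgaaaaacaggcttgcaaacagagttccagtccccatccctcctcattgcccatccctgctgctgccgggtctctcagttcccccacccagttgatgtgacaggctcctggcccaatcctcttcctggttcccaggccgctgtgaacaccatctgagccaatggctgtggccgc
The other 5 genes with a match were Acta2, Igf2, Peg3, Oat and Tpm1. Of the called genes of the YAP and TEAD list, Tnc and Tgfb2 had no match, and Thbs1 had no RefSeq promoter. A gene with more starts has more chances of a match, and Igf2 had 4 starts, Pls3 3 and Cald1 2. Acta2, Cald1 and Tpm1 belong to the contractile list as well, so its share and that of the called genes are not separate. A match describes the letters and not the binding of a factor. The CArG box, the site of serum response factor, was searched only as CCWWWWWWGG, where W is A or T. A match was found in 10 of the 29 genes of the contractile list with a promoter and in 1.38% of all genes with one. Of the 24 genes called higher in Mut18 with a promoter, 1 had a match, Igf2. Sites that depart from this pattern by a base were not counted, such as ccctatatgg and ccttgtttgg before Acta2.

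Most fibroblast genes moved with these groups, with a positive log2 difference in 15 and a negative one in 4. In bulk samples, fewer cells of a type cannot be told apart from less RNA per cell. Of 19 fibroblast markers compared, 2 were called higher in Mut18, Col1a1 and Timp3. At an unadjusted p under 0.05 there were 7 and 0, against 4.92% and 3.67% of all genes. In 10 the Mut18 libraries lay wholly above those of Mut43, with 3 the other way, against 19.4% and 19.3% of all genes. With any mutant library left out, Col1a1 was called and Timp3 was not. The 19 markers summed to 4970 and 4918 normalized counts in Mut18, 3988 and 3810 in Mut43, and 9033 and 6754 in WT. Without Col1a1 and Timp3 the sums were 2665 and 2591 in Mut18 against 2248 and 2079 in Mut43, and their ratio was 1.22. Their part in the contractile and matricellular differences was not tested.

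Col1a1, the main chain of fibrillar collagen I, had 1661 and 1663 normalized counts in Mut18 and 1233 and 1267 in Mut43. The log2 difference of Col1a1 was 0.41 (adjusted p = 0.000105, edgeR quasi-likelihood test, Benjamini-Hochberg adjustment), and Col1a2, the partner chain, had 536 and 466 against 372 and 328 and was not called (0.52, adjusted p = 0.0834, edgeR). Timp3, an inhibitor of matrix metalloproteinases, had 645 and 664 normalized counts in Mut18, 506 and 464 in Mut43, and 613 and 576 in WT, so the clones lay on opposite sides of WT. Among the other markers, Fbn1 had 167 and 166 counts in Mut18 against 110 and 123 in Mut43, Col3a1 135 and 147 against 108 and 97, Mmp2 429 and 428 against 366 and 342, and Col5a2 315 and 272 against 255 and 202. These were higher in both Mut18 libraries and were not called. Col6a1 had 34 and 25 counts in Mut18 and 29 and 21 in Mut43, Col6a2 had 22 and 20 against 23 and 32, and Postn had 38 and 52 against 39 and 40. Dcn had 8 and 7 counts against 11 and 4, Lum 2 and 0 against 5 and 0, and Fap 0 and 1 against 1 and 0. Of these 6 markers, Col6a2 was slightly higher in Mut43 and the others overlapped between the clones. Loxl1, with 61 and 68 counts in Mut18 against 74 and 69 in Mut43, was also slightly higher in Mut43. Pdgfrb had 70 and 71 against 71 and 76, and Thy1 90 and 83 against 83 and 120. Loxl1, Pdgfrb and Thy1 were not called. Dcn, Lum and Fap were too low to be compared. All genes of this paragraph other than Col1a1, Col1a2 and Timp3 were named after their values had been seen.

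The list of imprinted genes, which are expressed from the allele of a given parent, gave 4 further calls. Of 36 compared, 4 were called higher in Mut18 and 0 in Mut43, and the median log2 difference was 0.10. At an unadjusted p under 0.05 these were 11 and 0, against 4.92% and 3.67% of all genes. The counts cover the members of this list only, and Sfmbt2, called higher in Mut43, is not among them. With any mutant library left out, 0 to 2 were called. Igf2 (chr7:142650768-142666816), the growth factor gene expressed from the paternal allele, had 2230 and 2096 normalized counts in Mut18, 1730 and 1655 in Mut43, and 1965 and 1943 in WT. Mut18 lay above WT and Mut43 below it, with a log2 difference of 0.35 (standard error 0.049, adjusted p = 0.000207, edgeR quasi-likelihood test, Benjamini-Hochberg adjustment). Gnas, for a stimulatory G protein subunit, had 1918 and 1848 against 1500 and 1511 (0.32), and both clones were far below the 4673 and 4817 of WT. Peg3, a zinc-finger gene, had 814 and 915 against 688 and 673 (0.34), and Cdkn1c, for the cell cycle inhibitor p57, had 581 and 558 against 443 and 438 (0.37).

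The genes of the Igf2 neighbourhood did not all pass the test. H19, the maternally expressed non-coding RNA next to Igf2, had 390 and 428 normalized counts in Mut18 against 351 and 300 in Mut43, with a log2 difference of 0.33 (adjusted p = 0.147, edgeR). Lsp1, for an actin-binding protein and nearby on chromosome 7, was called at 0.77. Rian, a non-coding RNA of the Dlk1-Dio3 cluster, had 307 and 340 normalized counts in Mut18 and 290 and 288 in Mut43, far below the 5873 and 5643 of WT, and was not called between the clones. H19, Lsp1 and Rian were named after their values had been seen. Counts by gene do not tell the parental alleles apart.

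Neural genes gave 3 calls of 9 compared, all higher in Mut18, with a median log2 difference of 0.12. With any mutant library left out, 0 to 1 were called. Nes, for the progenitor intermediate filament nestin, had 970 and 996 normalized counts in Mut18, 795 and 794 in Mut43, and 2639 and 2457 in WT. Map2, for a dendritic microtubule-associated protein, had 151 and 158 against 113 and 82, and Ncam1, a neural cell adhesion molecule also found on mesenchymal cells, had 160 and 175 against 115 and 111. Their log2 differences were 0.31, 0.66 and 0.57. The early neural factors Pax6 and Zic2 had -0.03 and -0.03 and overlapped between the clones, and were named after their values had been seen. In the list of epithelial and mesenchymal adhesion genes, 1 of 23 was called, Cdh2 (N-cadherin), with 505 and 540 against 422 and 376 and a log2 difference of 0.39.

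Other genes were called higher in Mut18 outside these lists. Car2, for cytosolic carbonic anhydrase, had 1675 and 1662 normalized counts in Mut18, 1256 and 1229 in Mut43, and 5947 and 6076 in WT. The log2 difference of Car2 was 0.43 (adjusted p = 1.91e-05, edgeR quasi-likelihood test, Benjamini-Hochberg adjustment), while Mut18 was at 27.8% and Mut43 at 20.7% of WT. Fndc3c1, an X-linked gene of fibronectin type III repeats, had 325 and 327 against 223 and 221 (0.55). The remaining called genes complete the set and were named after their values had been seen. They are the matrix and adhesion genes Timp2, Serpinh1, Sdc2, Parva, Phldb2, Pcdh18 and Large, the signalling genes Mapk11, Wls and Fzd2, and Anxa3, Hmga2, Oat and Pls3, with log2 differences of 0.28 for Hmga2 to 0.75 for Pcdh18.

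No list held more than 1 of the 9 genes higher in Mut43. Beside Wdr77, Atp5f1 and H3f3b they were Tbx3, Gm10324, Lars2, AU015836, Pfkp and Sfmbt2. Tbx3, a T-box factor that favours self-renewal of ESCs, had 621 and 653 normalized counts in Mut18, 818 and 844 in Mut43, and 375 and 364 in WT. Its log2 difference was -0.38 (standard error 0.070, adjusted p = 0.00671, edgeR quasi-likelihood test, Benjamini-Hochberg adjustment), and both clones were above WT. Gm10324, a predicted gene of a zinc-finger family whose reads may be shared with its relatives, had 1424 and 1506 against 1825 and 1880 (-0.34). Lars2, for mitochondrial leucyl-tRNA synthetase, had 1129 and 1053 against 1376 and 1353 (-0.32), and AU015836 had 764 and 851 against 1002 and 1017 (-0.32). Sfmbt2, a Polycomb-related gene, had 1828 and 1925 against 2102 and 2295 (-0.23).

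Pfkp, for the platelet form of phosphofructokinase, was the called member of the hypoxia and glycolysis list. It had 1994 and 1869 normalized counts in Mut18, 2299 and 2233 in Mut43, and 1149 and 1220 in WT, a log2 difference of -0.23 (adjusted p = 0.0333, edgeR quasi-likelihood test, Benjamini-Hochberg adjustment). Of the 29 genes compared in this list, 0 had an unadjusted p under 0.05 with Mut18 higher and 10 with Mut43 higher. Over all genes these shares were 4.92% and 3.67%. In the list, 20 had libraries wholly higher in Mut43, against 19.3% of all genes, and the median log2 difference was -0.11. Bnip3, a mitophagy receptor, had 928 and 1019 against 1172 and 1124 (-0.24), and Pgk1, a glycolytic kinase, 10608 and 10628 against 11768 and 12015 (-0.16), and neither was called. Targets of the stress factor ATF4 gave 0 calls among 21, with 1 and 7 at an unadjusted p under 0.05 and a median of -0.11. The DESeq2 Wald test also called 0 of them. Trib3, a pseudokinase of this response, had 190 and 232 normalized counts in Mut18 and 264 and 288 in Mut43 (-0.39, not called).

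Genes of the pluripotent state differed little. Pou5f1 had 10599 and 10003 normalized counts in Mut18 and 10280 and 10250 in Mut43, with a log2 difference of 0.0051 and an interval of -0.09 to 0.10. Nanog had 5191 and 5296 against 5299 and 5314, with a log2 difference of -0.017 and an interval of -0.10 to 0.07. Neither gene was called. Of 12 core pluripotency factors 0 were called, with 0 and 2 at an unadjusted p under 0.05. Of 14 naive factors only Tbx3 was called, with 0 and 3 at such a p. The median log2 differences were -0.04 and -0.05. In 8 core and 7 naive factors the Mut43 libraries lay wholly above those of Mut18, against 19.3% of all genes. The other way there was 1 in each list, against 19.4% of all genes. Klf5 and Nr5a2, both supporters of the naive state, had log2 differences of -0.15 and -0.14 and were not called.

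In the lists of Polycomb genes, of H3K27 acetylation genes and of DNA methylation genes, edgeR called 0, as did the DESeq2 Wald test. The 23 PRC2 and PRC1 genes, whose complexes methylate lysine 27 of H3 or bind it, had a median log2 difference of -0.05. At an unadjusted p under 0.05, 0 were higher in Mut18 and 4 in Mut43, against 4.92% and 3.67% of all genes. Phf19, a PRC2 accessory gene, had 205 and 203 normalized counts in Mut18 and 259 and 267 in Mut43 (-0.37, adjusted p = 0.157, edgeR), and Suz12, a core subunit, 6902 and 7377 against 8119 and 7660 (-0.14). The 17 genes for writers, erasers and readers of H3K27 acetylation also had 0 and 4 such members and a median of -0.05. The 11 DNA methylation genes had 0 and 3 and a median of -0.04, with Tet2, a dioxygenase that oxidizes methylcytosine, at -0.18.

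**Figure D4:**
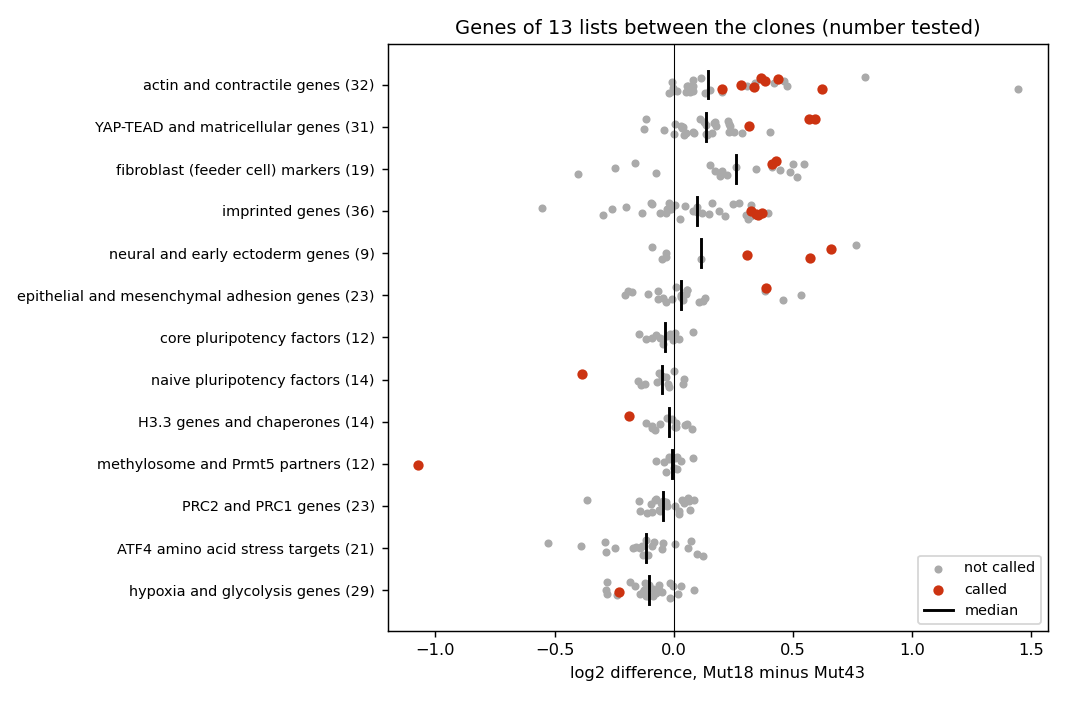
Log2 differences of Mut18 minus Mut43 are plotted for the compared genes of 13 lists, with the number compared in parentheses, called genes in red, other genes in grey and the list's median as a black bar. Medians run from -0.11 for hypoxia and glycolysis genes and for ATF4 targets to 0.26 for fibroblast markers, and red points lie to the right in the first 6 lists.

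In WT, the genes called between the clones stood mostly beyond the Mut18 level. Of the 37 genes higher in Mut18, the WT mean was above both clones in 33, between them in 4 and below both in 0. Among all 6860 genes higher in Mut18, WT was above both in 55.95%. Of the 9 genes higher in Mut43, WT was below both clones in 6 and between them in 3, and among all 6872 genes higher in Mut43 it was below both in 55.06%. The 4 genes higher in Mut18 with WT between were Igf2, Timp3, Peg3 and Lsp1. For most called genes Mut43 thus lay farther from WT than Mut18 did. The 19 fibroblast markers also summed highest in WT, and unevenly, at 9033 and 6754 normalized counts. The sums were 4970 and 4918 in Mut18 and 3988 and 3810 in Mut43. Whether this bears on the WT level of matrix and contractile genes such as Col1a1, Tnc and Acta2 was not tested. Mut18 and Mut43 share the WT libraries in this description, so no test is given.

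Medians by chromosome were close to 0. The median log2 difference per chromosome lay, for the autosomes and X, between -0.014 on chromosome 17 and 0.027 on chromosome X, with 339 to 1177 genes on each chromosome other than Y. Chromosome Y, with 7 genes, had a median of 0.033. The median difference between replicates of Mut18 on chromosome X was -0.034, larger in size than that between the clones. Over 137 segments of 20 Mb, the medians lay between -0.036 and 0.11.

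Most called genes had accessible chromatin at a start site in both clones. Within 500 bases of an annotated start, 34 of the 37 genes higher in Mut18 (91.9%) and 7 of the 9 higher in Mut43 (77.8%) had an ATAC-seq peak in all 4 mutant libraries, against 86.9% of the 13627 compared genes with an annotated start. Acta2, Lsp1 and Gm10324 had no peak there in any mutant library, and Sfmbt2 lacked it in a Mut18 library. Igf2 had a peak in both Mut18 libraries and none in Mut43 within 500 bases, while within 1000 bases a peak was also listed in the first Mut43 library. A peak list records what passed the authors' threshold, and a missing peak can reflect the depth of the library, which the peak lists do not give.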

How the data were processed

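mRNA was sequenced as paired ends from 2 libraries each of WT, Mut18 and Mut43. The authors deposited 1 table of whole-number counts per gene without normalization, on a reference of mm10 joined to the Drosophila genome. The submitters' processing notes name STAR, SAMtools, Bowtie2 2.3.4.2, deepTools 3.3.0 and DESeq2, while the counting program, its use of strand and the annotation are not given in the sources used here. For ATAC-seq, the authors deposited 1 peak list per library, with a fold enrichment (a ratio to background) and a -log10 q. The lists hold peaks with a -log10 q above 6. The notes name MACS2.

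Groups were taken from the titles of the samples. Genes with at least 10 counts in 2 or more mutant libraries were kept, and edgeR 4.0.16 was run under R 4.3.3. All 6 libraries entered a fit with 3 groups and TMM normalization (factors 0.986 to 1.02), Mut18 minus Mut43 was tested by the quasi-likelihood F-test, and p-values were adjusted by Benjamini and Hochberg over the 13732 genes. A gene was called at an adjusted p under 0.05. Intervals at 95% used the standard error and 26.3 degrees of freedom. The scale of normalized counts is 15055214 per library. The fit was tested on simulated counts. Figures and peaks were handled in Python 3.11.15 with pandas 2.3.3. Coordinates and promoters come from RefSeq on GRCm38.p6, the build of mm10, and start sites from GENCODE vM21. Of the 13732 symbols, 13092 matched RefSeq directly and 585 by an older name, 20 had been turned into dates and 35 had no match. Of the 46 called genes, 31 had a promoter sequence.

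Named genes are the 12 called genes with the lowest p in each direction, called genes over 2-fold, called members of 33 gene lists, the 3 members with the lowest p of each list with at least 3 members at an unadjusted p under 0.05, H3f3a, H3f3b, Pou5f1, Nanog, and the genes next to a called gene over 2-fold. Others are named as chosen after their values were seen. The genes compared, the lists and the tests were chosen with earlier results of these data known. Alternatives were DESeq2 1.42.0, other size factors, filters, samples and thresholds, a replicate block, and each library left out in turn. ChIP-seq was not used here.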

Additional observations from a re-analysis of the deposited data

Results flagged for a closer look

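For 4 called genes the clones departed from WT in opposite directions, with both Mut18 libraries on one side of both WT libraries and both Mut43 libraries on the other. The difference between the departures is the difference between the clones, which edgeR's quasi-likelihood test called. Wdr77 (log2 difference -1.08) and H3f3b (-0.19) were below WT in Mut18 and above it in Mut43. Igf2 (0.35) and Timp3 (0.43) were above WT in Mut18 and below it in Mut43. For Wdr77 the Mut18 mean was 54.1% and the Mut43 mean 114.0% of WT, for H3f3b they were 95.3% and 108.5%, for Igf2 110.7% and 86.6%, and for Timp3 110.0% and 81.6%. The pattern was looked for among called genes only.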

How the results depend on the processing

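The 46 called genes kept their direction in each of the 13 or 14 other fits that gave them an adjusted p, and Wdr77, Atp5f1, Acta2, Car2, Tnc, Col1a1 and Cald1 were called in each. Against 37 genes higher in Mut18 and 9 higher in Mut43, the DESeq2 Wald test called 18 and 7, a filter of 1 count 19 and 5, and the 4 mutant libraries alone 60 and 12. An adjusted p under 0.1 gave 57 and 13, and a fold over 2 gave 0 and 1. With a library left out in turn, 6 to 62 and 2 to 13 genes were called, and a clone left with 1 library was assumed to vary like the other lines. Without the first or second library of WT these were 60 and 12 or 62 and 13, without those of Mut18 7 and 2 or 10 and 3, and without those of Mut43 13 and 3 or 6 and 2. Size factors of DESeq2, library totals, the filter of edgeR and a minimum of 50 counts gave counts within 1.5 times. The cause of these shifts was not tested, beyond the fewer libraries or other genes that each setting has. The share of genes with an interval within 2-fold was 90.9% in the 4 mutant libraries alone, 99.7% at a minimum of 50 counts and 85.1% to 91.0% with a library left out. The largest median of a chromosome stayed between 0.019 and 0.037. With a replicate block 31 and 6 genes were called, but the numbers are not shown to pair libraries, since deviations of same-numbered libraries correlated at -0.073, 0.045 and -0.023. With 2 libraries in each clone, intervals were wide for genes of low counts, and culture, passage and clone cannot be told apart.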

Other observations

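Lists of other lineages gave no calls between the clones, by edgeR's quasi-likelihood test or by DESeq2. Over all genes, 4.92% had an unadjusted p under 0.05 with Mut18 higher and 3.67% with Mut43 higher. At an unadjusted p under 0.05 with Mut18 or Mut43 higher, there were 2 and 1 of 13 homeobox and paired-box regulators, 1 and 0 of 14 trophoblast genes, 2 and 2 of 13 primitive endoderm genes, and 1 and 1 of 11 primed state and mesendoderm genes. Gpx2, an intestinal-type glutathione peroxidase, had 345 and 317 normalized counts in Mut18 and 381 and 396 in Mut43, against 56.7 and 56.9 in WT. Stra8, a meiotic entry gene of the germline list, had 65.0 and 55.6 in Mut18 and 84.4 and 92.3 in Mut43, against 8.81 and 18.7 in WT, with a log2 difference between the clones of -0.55 that was not called (adjusted p = 0.385, edgeR). Rhox5, an X-linked homeobox gene silenced by DNA methylation, had 709.6 and 665 in Mut18 and 566 and 552 in Mut43, against 343 and 403 in WT. Its difference of 0.30 was not called in the fit of all 6 libraries (adjusted p = 0.140, edgeR). It was the largest in the germline list with Mut18 higher. In the 4 mutant libraries alone, 1 of the 19 genes of that list was called higher in Mut18.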
